A study of Danio rerio with 2 samples.

Results

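The genes described here are all those of the deposited tables whose symbol begins with *cldn*, 34 of 32059 features. This rule used no measured value. It also takes in *cldnd1a* and *cldnd1b*, whose products carry a claudin domain but are not claudins in the strict sense, whereas *cldnd* is a claudin. Claudins are the tetraspan membrane proteins that build the strands of tight junctions, and each epithelium carries its own combination of them. Some claudins seal the space between neighbouring cells, while others form paracellular pores for cations or water. In the inner ear and in the neuromasts of the lateral line, tight junctions join hair cells (HCs) to the supporting cells (SCs) around them and separate the fluid at the hair bundle from the fluid below, and in humans and mice loss of CLDN14 causes deafness.

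The data came from larvae at 4 dpf that carried Tg(Brn3c:mGFP), a transgene in which the *pou4f3* (Brn3c) promoter drives membrane GFP in HCs and also in some neurons. Tissue was dissociated with trypsin, GFP-positive cells were sorted, and 10x Genomics 3′ libraries were made. A single library came from larvae of wild-type genotype (control) and a single library from larvae labelled *hsd17b7*-KO (mutant), a CRISPR/Cas9 line whose selected allele carries a frameshifting deletion. Both libraries share the transgene, and the number of larvae pooled in each is not given in the sources used here. There was no replicate of either genotype. Values are therefore given per library with 95% intervals (exact Poisson for levels, exact conditional binomial for ratios, exact binomial for shares of cells), which cover counting error only, and no test between genotypes was possible.

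The libraries held 180590990 (control) and 81920586 (mutant) UMIs, and 17385 of 19270 and 8322 of 10119 barcodes were kept for having 500 genes or more and a mitochondrial share no higher than 20%. The targeted gene did not check the labels, since *hsd17b7* in inner ear HCs was at 189 CPM (UMIs per 1000000 UMIs of the class) in the control library and 307 CPM (mutant), and in lateral line HCs at 127 and 175 CPM. A frameshift need not lower the transcript, so the words control and mutant below mean the libraries by their labels. The matrices came from Cell Ranger 7.1.0 (control) and 9.0.1 (mutant), so genotype, library and software version cannot be told apart. The globin share was 11.8% of UMIs (control) against 0.00935% (mutant), and 37 kept barcode sequences occurred in both libraries, 0 of them in the same cell class.

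Cell classes were gated on a few genes that are not claudins. HCs had at least 3 UMIs of *myo6b*, an unconventional myosin of HCs, and were called inner ear HCs (IEHCs) where *lhfpl5a* exceeded *lhfpl5b* and lateral line HCs (LLHCs) where *lhfpl5b* exceeded *lhfpl5a*. SCs had *stm*, the otolith matrix protein starmaker, at 1000 CPM or more, and were called lateral line SCs (LLSCs) with *irg1l* at 300 CPM or more and inner ear SCs (IESCs) with *irg1l* under 200 CPM. Skin cells had *krt4* and *krt5* at 1% of UMIs or more, endothelial cells at least 2 UMIs of *kdrl* and *cdh5* together, and hepatocytes at least 2 UMIs each of *tfa* and *fabp10a*. Barcodes that met several gates (172 control, 83 mutant) were left out. This gave 735 and 704 IEHCs, 76 and 59 LLHCs, 464 and 78 IESCs, 198 and 220 LLSCs, 39 and 16 skin cells, 422 and 162 endothelial cells and 1232 and 742 hepatocytes (control and mutant, an order kept throughout). Most kept barcodes, 14047 and 6258, met no gate. The sorted transgene was at 757 and 1236 CPM in IEHCs, 781 and 1118 CPM in LLHCs and 18.2 and 14.01 CPM in LLSCs.

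The gates were checked against markers they did not use, counting markers that stood 4-fold above the other kept cells in both libraries. This held for 14 of 16 HC markers in the IEHCs, 6 of 16 in the LLHCs, 12 of 13 skin markers, 9 of 10 endothelial markers and 10 of 10 hepatocyte markers. It held for 6 of 13 SC markers in the IESCs and 4 of 13 in the LLSCs. The IESC gate of the control library went partly against its name, because 145 of its 464 cells had UMIs of the retinal pigment gene *rdh5* and these carried the melanocyte genes *pmela* and *dct* at 11120 CPM together. No mutant IESC had an *rdh5* UMI. IESCs are therefore also given with the added requirement of an *otogl* UMI, the gene of the inner ear matrix protein otogelin-like, which left 130 and 41 cells. The mutant endothelial gate carried the neuron marker list at 4771 CPM against 1139 CPM in the control gate.

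Levels are CPM of the UMIs summed over the cells of a class. Since 3′ ends were counted, CPM values of different genes are compared as transcript counts without division by gene length. Claudins together made up 0.0752% and 0.0643% of the UMIs of kept cells. Of the 34 members, 29 had at least 100 UMIs over both libraries and were considered for calls, given 20 UMIs or more in the classes compared. The members below that minimum were *cldn10a*, *cldn10l2*, *cldn18*, *cldnj* and *cldnd*, and *cldn18*, a claudin of stomach and lung in mammals, had 1 UMI in all. The sum of all claudins reached 4560.4 and 3816 CPM in LLSCs and 5114 and 4421 CPM in skin, against 370.5 and 198 CPM in IEHCs.

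**Figure D1:**
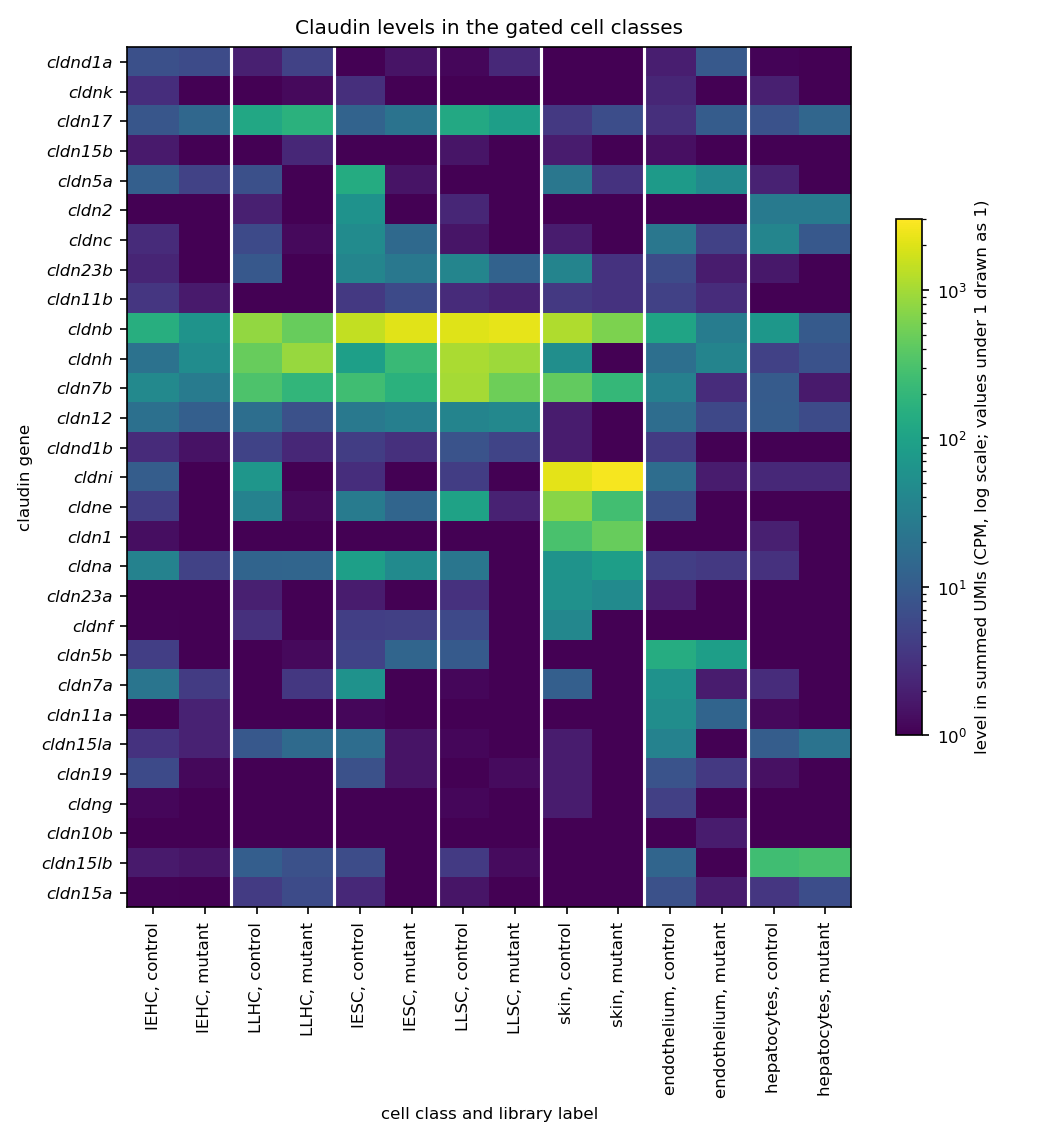
Level of each of the 29 claudins with at least 100 UMIs (rows) in the 7 gated cell classes of each library (columns), as CPM on a logarithmic colour scale with values under 1 drawn as 1. LLSCs, skin, IESCs and LLHCs hold the brightest blocks, with summed claudins higher in IESCs (2346 and 2719 CPM) than in LLHCs (1924 and 1763 CPM). *cldn15lb* stands out in hepatocytes, and the IEHC columns stay dim beside the LLHC columns.

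The lateral line and inner ear HCs differed most in 4 claudins, *cldnh*, *cldn17*, *cldnb* and *cldn7b*, which were several-fold higher in LLHCs in both libraries. *cldnh*, named *cldn3c* by RefSeq, was at 472 CPM (430.1 to 516) in control and 868 CPM (805 to 934) in mutant LLHCs, against 20.5 CPM (17.9 to 23.3) and 48.8 CPM (44.4 to 53.5) in IEHCs. *cldn17*, which RefSeq names *cldn8.3*, was at 120.5 CPM (99.9 to 144) and 166 CPM (139 to 197) in LLHCs and at 8.41 CPM (6.81 to 10.3) and 14.5 CPM (12.1 to 17.1) in IEHCs. For both genes, each LLHC value lay above both IEHC values, with intervals that did not overlap. The ratio of LLHCs to IEHCs was 23.1-fold (19.7 to 27.1) and 17.8-fold (15.8 to 20.04) for *cldnh* and 14.3-fold (10.8 to 18.9) and 11.5-fold (8.99 to 14.7) for *cldn17*.

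*cldnb*, whose promoter is widely used to label the lateral line of zebrafish, was at 807 CPM (752 to 865) and 465 CPM (419.6 to 515) in LLHCs and at 149.8 CPM (143 to 157) and 60.7 CPM (55.8 to 65.9) in IEHCs. *cldn7b*, a zebrafish counterpart of the epithelial claudin CLDN7, was at 322 CPM (288 to 359) and 194 CPM (165 to 227) in LLHCs and at 43.2 CPM (39.5 to 47.2) and 27.6 CPM (24.4 to 31.2) in IEHCs. Neither gene's LLHC and IEHC intervals overlapped within or across libraries. The ratios were 5.39-fold (4.95 to 5.86) and 7.66-fold (6.71 to 8.74) for *cldnb* and 7.46-fold (6.46 to 8.601) and 7.03-fold (5.74 to 8.61) for *cldn7b*.

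Requiring a 4-fold difference in both libraries, 5 of 29 claudins were higher in LLHCs than in IEHCs, against 1.3% of all 21943 features with at least 100 UMIs, and 0 of 29 were lower, against 0.798%. The fifth, *cldn15lb*, rested on 11 and 6 UMIs in LLHCs, and it was not called once each cell was weighted equally, whereas *cldnh*, *cldn17*, *cldnb* and *cldn7b* were. The calls of *cldnb* and *cldn15lb* were lost when barcodes that met several gates were kept, which left 3 of 29 (against 1.42%).

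**Figure D2:**
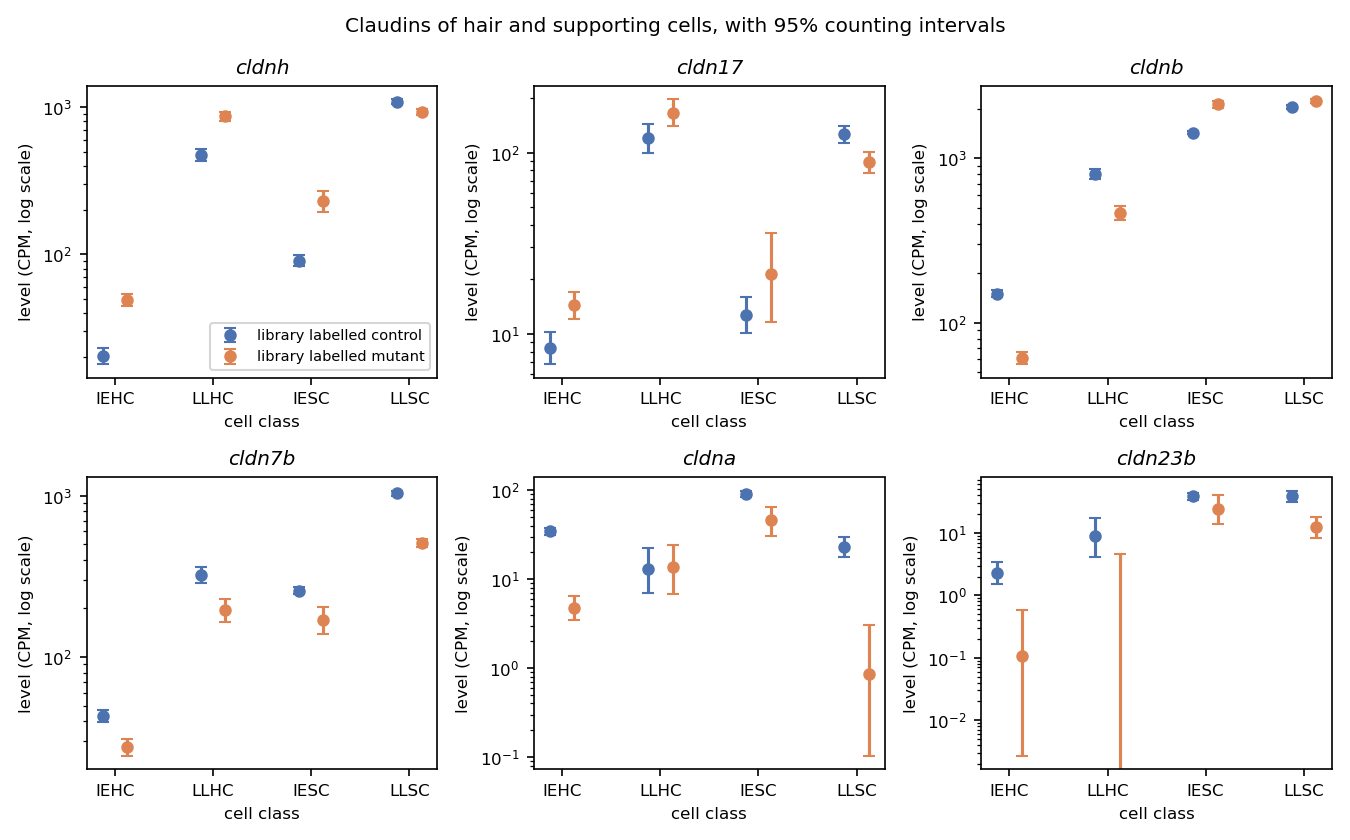
Level (CPM, logarithmic axis) of 6 claudins in IEHCs, LLHCs, IESCs and LLSCs, with the control library in blue and the mutant library in orange. Bars are 95% Poisson counting intervals. For *cldnh*, *cldn17*, *cldnb* and *cldn7b* both LLHC points lie above both IEHC points.

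Within the lateral line, HCs and SCs held these 4 genes at closer levels. In LLSCs *cldnh* was at 1091 CPM (1051 to 1132) and 925 CPM (887 to 965), so the LLHC level was 0.432-fold (0.391 to 0.477) and 0.938-fold (0.861 to 1.02) of it in the control and mutant library. *cldn17* was at 126 CPM (113 to 141) and 88.3 CPM (76.7 to 101) in LLSCs, and the LLHC level was 0.955-fold (0.768 to 1.18) and 1.88-fold (1.504 to 2.35) of that. For these 2 genes the LLHC interval overlapped that of LLSCs in 1 library each, *cldn17* in the control and *cldnh* in the mutant library. *cldnb* and *cldn7b* stood apart in both libraries, at 2059 and 2222 CPM and 1031 and 505 CPM in LLSCs. The LLHC levels were 0.392-fold (0.363 to 0.422) and 0.209-fold (0.188 to 0.232) of these for *cldnb* and 0.312-fold (0.277 to 0.351) and 0.385-fold (0.324 to 0.455) for *cldn7b*.

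No claudin was 4-fold lower in LLHCs than in LLSCs in both libraries (0 of 29, against 2.09% of all features tested). The only claudin called 4-fold higher in LLHCs (1 of 29, against 4.52%) was *cldn15la*, which rested on 9 and 13 UMIs. Of these, 88.9% and 84.6% came from a single cell.

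The gates fix that *stm* and *irg1l* are higher in LLSCs than in LLHCs, and both are given here only as levels. *stm* was at 328 and 19.7 CPM in LLHCs, 13937 and 9284 CPM in LLSCs and 56.5 and 55.3 CPM in IEHCs. *irg1l* was at 135 and 243 CPM in LLHCs, 1703 and 3418 CPM in LLSCs and 5.49 and 24.2 CPM in IEHCs. Compared with IEHCs, the LLHCs were thus higher in *irg1l* in both libraries and in *stm* in the control library. Of the SC markers that no gate used and that stood out in LLSCs, *si:ch73-261i21.5* was at 16.1 and 9.85 CPM in LLHCs, 146 and 153 CPM in LLSCs and 9.30 and 4.998 CPM in IEHCs. *lfng*, a modulator of Notch signalling, was at 61.2 and 54.2 CPM in LLHCs, 240.1 and 473 CPM in LLSCs and 23.1 and 23.1 CPM in IEHCs. Both lay between the IEHC and the LLSC levels in the LLHCs of each library. The others that stood out were *fndc7rs4* and *tspan1*. *fndc7rs4* was at 1.004 and 0 CPM in LLHCs, 14.7 and 7.22 CPM in LLSCs and 1.06 and 0.319 CPM in IEHCs. *tspan1* was at 7.03 and 0 CPM in LLHCs, 15.5 and 2.55 CPM in LLSCs and 0.177 and 0.106 CPM in IEHCs. Of these values, only that of *tspan1* in control LLHCs lay between. In the 61 and 57 LLHCs with *stm* under 100 CPM, *cldnh* was at 429.5 and 856 CPM, *cldn17* at 126 and 177 CPM, *cldnb* at 681 and 407 CPM and *cldn7b* at 284 and 184 CPM. The *cldn17* values lay within the counting intervals of all LLHCs, and the values of *cldnb* lay below them in both libraries. Those of *cldnh* and *cldn7b* lay below them in the control library and within them in the mutant library. The same 4 genes were called against IEHCs with the same *stm* limit, together with *cldn15a* and *cldn15la* (6 of 29, against 1.35%).

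Scores of a doublet caller were higher among LLHCs than among IEHCs. Of the LLHCs 30 of 76 (39.5%) and 13 of 59 (22.03%) were among the 8% of barcodes with the highest scores, against 13.5% and 10.2% of the IEHCs. The 46 and 46 LLHCs that were left carried *cldnh* at 554 and 878 CPM, *cldn17* at 122 and 178 CPM, *cldnb* at 726 and 404 CPM and *cldn7b* at 323 and 187 CPM. All 4 were still 4-fold above the IEHCs left by the same removal (4 of 29, against 1.26%). The 46 and 46 LLHCs are under the minimum of 50 cells set for classes. The caller's own threshold marked only 0 and 1 barcodes, and whether its scores separate doublets here was not tested. With the removal, *irg1l* in LLHCs went from 135 to 180 CPM in the control and from 243 to 97.3 CPM in the mutant library. *stm* in LLHCs went from 328 to 66.9 CPM and from 19.7 to 12.6 CPM. The part of SC transcripts in LLHC barcodes in the levels of the 4 genes was not tested beyond these values.

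The 4 genes were also counted cell by cell. They were named above for being higher in LLHCs than in IEHCs, so a higher joint share in LLHCs follows from that choice. Whether they occurred together more often than their single shares would give was not tested. A UMI of each of *cldnb*, *cldnh*, *cldn7b* and *cldn17* was present in 34 of 76 (44.7%) and 27 of 59 (45.8%) LLHCs and in 51.5% and 42.7% of LLSCs, against 0.952% and 1.56% of IEHCs and 5.82% and 3.85% of IESCs. None of the 4 was found in 33.5% and 60.1% of IEHCs and in 7.89% and 6.78% of LLHCs. Median depths were similar, at 14161 and 12732 UMIs per IEHC and 12028 and 12775 UMIs per LLHC. Across the LLHCs the level of *cldnh* per cell ranged from 0 CPM at the tenth percentile to 1239 and 2028 CPM at the ninetieth.

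With every cell thinned to 2000 UMIs, *cldnh* was detected in 39.2% (28.04 to 51.2%) and 57.6% (44.1 to 70.4%) of LLHCs and in 3.401% (2.21 to 4.98%) and 4.55% (3.13 to 6.36%) of IEHCs. *cldn17* was detected in 18.9% (10.7 to 29.7%) and 28.8% (17.8 to 42.1%) of LLHCs and in 1.63% (0.846 to 2.83%) and 2.41% (1.41 to 3.84%) of IEHCs. For both genes the LLHC shares lay above the IEHC shares with no overlap of intervals. Hepatocytes served as the class for background, and there the same thinning gave 0.407% and 0.952% for *cldnh*, 1.39% and 3.13% for *cldn17*, 9.94% and 1.905% for *cldnb* and 1.06% and 0.544% for *cldn7b*. The IEHC shares of *cldn17*, at 1.63% and 2.41%, were not above the hepatocyte shares beyond their intervals in either library. At this depth *cldn17* in IEHCs could thus not be separated from the background set by hepatocytes. Without thinning, *cldn17* was at 8.41 and 14.5 CPM in IEHCs, 7.55 and 14.3 CPM in hepatocytes and 2.97 and 10.3 CPM in endothelium.

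**Figure D3:**
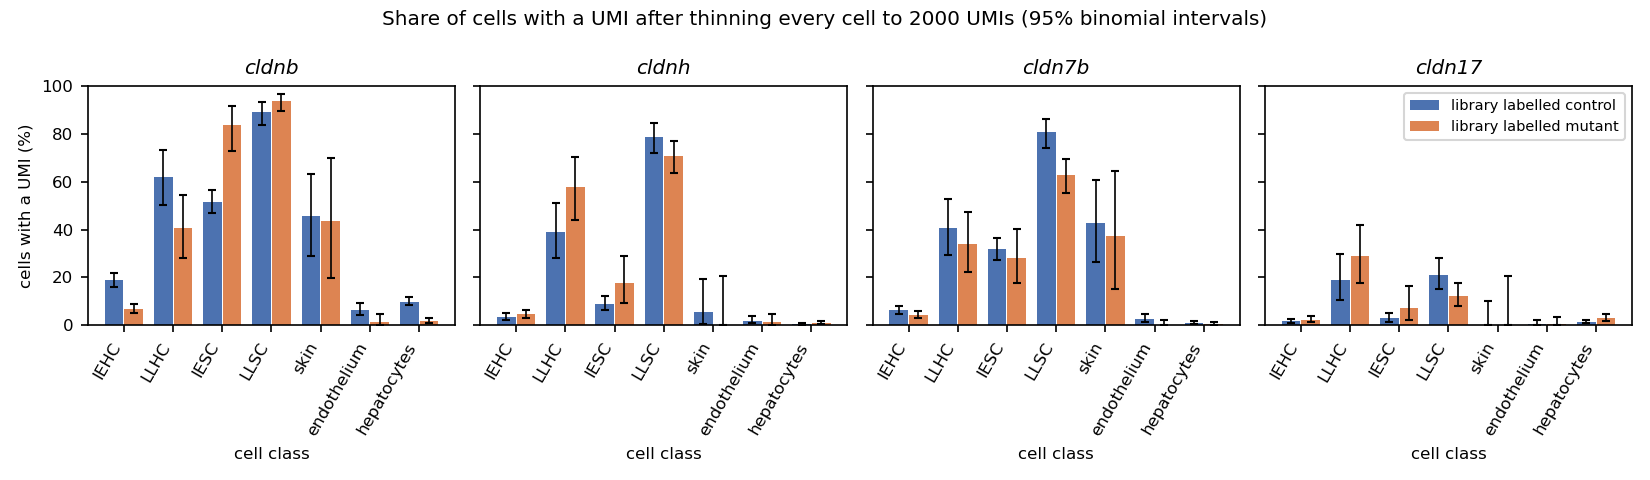
Share of cells with at least 1 UMI of *cldnb*, *cldnh*, *cldn7b* and *cldn17* (percent, from 0) in the 7 cell classes after thinning each cell to 2000 UMIs, with control in blue, mutant in orange and bars for 95% exact binomial intervals. Both lateral line classes are high for all 4 genes, and IEHCs, endothelium and hepatocytes are low for *cldnh*, *cldn7b* and *cldn17*.

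In IEHCs 0 of 29 claudins stood 4-fold above the other kept cells in both libraries. The share of all features called was 4.99%, so a count of 0 is not far from it. The nearest were *cldna* at 3.74-fold (3.34 to 4.18) and 1.998-fold (1.404 to 2.79) and *cldnd1a* at 3.02-fold (2.34 to 3.85) and 1.97-fold (1.45 to 2.65) of the level in the other cells. After *cldnb*, *cldn7b* and *cldnh*, whose levels are given above, the claudins with the highest mean over the libraries were *cldna* at 34.5 and 4.785 CPM and *cldn12* at 19.4 and 11.4 CPM. In IEHCs with *stm* under 100 CPM *cldnb* was lower, at 119 and 32.5 CPM. In cells with no epithelial role *cldnb* was at 19.2 CPM (control erythrocytes, of which the mutant library had 1), 21.6 and 5.05 CPM (neuron-like cells) and 10.1 and 15.8 CPM (macrophage-like cells). The IEHC levels lay above these in both libraries. Endothelium held *cldnb* at 109 and 28.9 CPM, near the levels of IEHCs with *stm* under 100 CPM, and hepatocytes held it at 68.7 and 9.77 CPM. Thinned to 2000 UMIs, 18.9% (16.1 to 21.9%) and 6.96% (5.19 to 9.098%) of IEHCs had a *cldnb* UMI, above the hepatocyte shares given before.

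The LLHCs had 3 of 29 claudins at 4-fold above the other kept cells in both libraries, against 1.57% of all features. These were *cldn17* (13.2-fold (10.9 to 15.9) and 9.18-fold (7.64 to 10.96)), *cldnh* (7.37-fold (6.704 to 8.08) and 7.25-fold (6.705 to 7.83)) and *cldn7b* (4.44-fold (3.96 to 4.96) and 4.43-fold (3.75 to 5.19)). *cldn7b* dropped out in LLHCs with *stm* under 100 CPM (2 of 29, against 1.53%). Against the other gated classes in place of all other cells, only *cldn17* was called (1 of 29, against 0.975%). A further value, *cldni* at 66.3 CPM in control LLHCs, came to 93.9% from 1 cell and was 4.12 CPM without it, and *cldne* at 35.1 CPM came to 62.9% from 1 cell.

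The SCs carried the most claudin transcripts of the sensory organs. In LLSCs 5 of 29 claudins were called, against 3.41% of all features. *cldnb* stood 9.21-fold (8.95 to 9.48) and 16.5-fold (15.9 to 17.03) above the other kept cells, *cldnh* 21.4-fold (20.5 to 22.3) and 9.01-fold (8.59 to 9.45), *cldn7b* 17.3-fold (16.5 to 18.01) and 16.2-fold (15.1 to 17.4) and *cldn17* 15.8-fold (13.9 to 17.8) and 5.04-fold (4.34 to 5.84). The least abundant was *cldn23b*, at 38.8 and 12.3 CPM. *cldnb* was found in 94.4% and 97.7%, *cldn7b* in 93.4% and 92.3% and *cldnh* in 90.9% and 93.6% of LLSCs.

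In IESCs 3 of 29 claudins were called, against 1.22% of all features. *cldnb* was at 1429.6 CPM (1399.6 to 1460.1) and 2124 CPM (2013 to 2238), *cldna* at 90.9 CPM (83.5 to 98.9) and 45.9 CPM (30.97 to 65.5) and *cldn23b* at 38.8 CPM (34.01 to 44.1) and 24.5 CPM (13.99 to 39.8). *cldn7b*, at 257 and 168 CPM, missed the 4-fold criterion, as did *cldnh* at 90.8 and 229 CPM and *cldn5a* at 136 and 1.53 CPM. None was called when the comparison was with the other gated classes alone, which hold LLSCs and skin.

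The control IESC values mixed different cells. In the 145 cells with *rdh5*, *cldnb* was at 125 CPM while *cldn5a* was at 347 and *cldn2* at 166 CPM. In the cells with *otogl*, *cldnb* was at 2601 and 2232 CPM, with *cldn7b* at 327 and 118 CPM, *cldna* at 137 and 67.5 CPM and *cldn23b* at 83.1 and 22.5 CPM. *cldn5a* and *cldn2* were at 30.5 and 4.43 CPM in the control and had 0 UMIs in the mutant cells. With the *otogl* requirement 5 of 29 claudins were called (against 2.95%), *cldnb*, *cldna*, *cldn23b*, *cldn7b* and *cldnf*. The call of *cldnf* rested on few UMIs, as the whole IESC gate held 27 and 3 of them. *cldnj*, of interest because a zebrafish mutant of it has small otoliths, had too few UMIs for a call and was at 10.3 and 12.5 CPM in the *otogl* cells.

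*cldnh* and *cldn17* separated the lateral line from the inner ear SCs. Both were 4-fold higher in LLSCs than in IESCs in both libraries (2 of 29, against 1.29%), by 12.02-fold (10.97 to 13.2) and 4.03-fold (3.41 to 4.788) for *cldnh* and 9.87-fold (7.68 to 12.8) and 4.12-fold (2.402 to 7.67) for *cldn17*. The mutant ratios sat at the criterion, and neither gene was called with equal cell weights or after thinning. In the *otogl* cells *cldnh* was at 35.4 and 60.04 CPM and *cldn17* at 6.88 CPM (14 UMIs) and 0 UMIs, and both were called (2 of 29, against 1.49%). *cldnc* was the only claudin 4-fold lower (1 of 29, against 2.85%), with 4 and 0 UMIs in LLSCs. Its mutant IESC value of 15.3 CPM came to 90% from 1 cell. With the *otogl* requirement the lower claudin was *cldna* (1 of 29, against 2.76%), at 23.3 and 0.849 CPM in LLSCs against 137 and 67.5 CPM in *otogl* cells.

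Between IEHCs and IESCs, 7 of 29 claudins were 4-fold lower in IEHCs, against 4.56% of all features, namely *cldnb*, *cldn7b*, *cldnh*, *cldn23b*, *cldnc*, *cldne* and *cldnf*. With barcodes of several gates kept, 4 were (against 1.81%). Some of the 7 calls rested on few mutant UMIs. In mutant IEHCs and IESCs *cldnf* had 3 and 3, *cldne* 4 and 9, *cldnc* 4 and 10 and *cldn23b* 1 and 16 UMIs. The IEHC level was 0.105-fold (0.0994 to 0.1104) and 0.0286-fold (0.0259 to 0.0315) of the IESC level for *cldnb* and 0.168-fold (0.151 to 0.186) and 0.164-fold (0.131 to 0.207) for *cldn7b*. The single gene called higher in IEHCs (1 of 29, against 3.86%) was *cldnd1a*, a claudin-domain gene, at 7.09 and 6.17 CPM. It had 3 and 1 UMIs in IESCs and was not called with *otogl* cells as the comparison.

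By fold over the other kept cells, skin cells were led by *cldni* and *cldn1*. By level, *cldnb* stood above *cldn1* in both libraries. The class had under 50 cells in each library, so the calls use a lowered minimum of 15 cells. Of 29 claudins 6 were 4-fold above the other kept cells in both libraries, against 1.82% of all features. *cldni* was at 2176 CPM (2053 to 2304) and 2717 CPM (2535 to 2908), 82.6- and 176-fold above the other cells. *cldn1*, whose mouse counterpart is needed for the epidermal water barrier of mice, was at 302 CPM (257 to 352) and 469 CPM (395 to 552), 175- and 485-fold above. Both were found in most skin cells, *cldni* in 82.1% and 81.2% and *cldn1* in 71.8% and 81.2%.

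The other skin calls rested on fewer cells. *cldne* was at 723 and 262 CPM and was found in 17.9% and 25% of skin cells, with 44.3% and 60% of its UMIs in 1 cell. *cldna* in the mutant came from 1 cell, and *cldn23a* was found in 12.8% and 12.5% of cells. *cldn7b* was at 434 and 206 CPM in 71.8% and 68.8% of cells. *cldnb* was abundant at 1174 and 616 CPM without reaching 4-fold in both libraries. *cldnh* and *cldn17* were low, at 52.2 and 0 CPM and 3.73 and 6.55 CPM.

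In endothelium the called claudin was *cldn5b* (1 of 29, against 0.93% of all features), a counterpart of CLDN5, the claudin of the mammalian blood-brain barrier. It was at 141 CPM (130.5 to 151) and 88.5 CPM (71.6 to 108), 17.2-fold (15.7 to 18.8) and 10.1-fold (8.06 to 12.5) above the other kept cells. Its paralog *cldn5a* was at 78.8 and 44.7 CPM, and 1 cell gave 77.1% of the mutant UMIs, without which it was at 10.3 CPM. *cldnb* was at 109 and 28.9 CPM and *cldn7a* at 59.03 and 1.86 CPM without being called. *cldn11a* was at 51.3 and 13.05 CPM, with 85.7% of the mutant UMIs from 1 cell. *cldn5b* was also seen outside the gate, at 59.5 and 177 CPM in progenitor-like and 22.5 and 18.1 CPM in neuron-like cells. The mutant progenitor-like level lay above that of the mutant endothelial gate, which held neuron transcripts as given above.

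In hepatocytes 2 of 29 claudins were called, against 3.09% of all features. *cldn15lb* was at 257 CPM (251 to 262) and 296 CPM (288 to 303) and was found in 90.99% and 93.5% of cells. CLDN15 forms a cation pore in the mammalian intestine. *cldn2*, whose mammalian counterpart passes cations and water in kidney, gut and bile ducts, was at 26.2 CPM (24.4 to 28.1) and 26.6 CPM (24.4 to 28.9), with intervals that overlapped between the libraries. In the control library it was higher in the IESC gate, at 58.6 CPM, where the cells with *rdh5* carried it. It was called on 4.31-fold (3.91 to 4.75) and 40.3-fold (28.99 to 57.6) and was lost with the stricter barcode filter of 1000 genes and 10% mitochondrial UMIs. *cldnc* in hepatocytes was at 38.1 and 8.98 CPM and *cldnb* at 68.7 and 9.77 CPM.

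Cells in no gate were assigned to the marker list with the highest summed share relative to all kept cells, given at least 4-fold and 3 detected markers. These groups are a description, and they show where other claudins were highest. In intestine-like cells (162 and 107) *cldn15la* led at 1077 CPM (1044 to 1110.03) and 1184 CPM (1143 to 1225), followed by *cldnc* at 354 and 146 CPM, *cldn15lb* at 338 and 149.6 CPM and *cldn15a* at 187 and 120.5 CPM. *cldn15la* was found in 96.3% and 99.1% of them. *cldn15lb* was thus shared with hepatocytes, whereas *cldn15la* was at 10.5 and 21.3 CPM there. *cldn15b* was also highest in the intestine-like cells, at 15.97 and 14.7 CPM. *cldn15a* was highest there in the mutant library only. In the control library it was highest in 15 cells assigned to the list of digestive enzyme genes, at 196 CPM.

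The ionocyte-like (60 and 21) and pronephros-like cells (102 and 31) shared *cldnb* and *cldnh* with the lateral line. In ionocyte-like cells *cldnh* was at 996 CPM (927 to 1069) and 1616 CPM (1448 to 1797) and *cldnb* at 1048 and 1048 CPM, beside *cldne* at 545 and 329 CPM, *cldn23a* at 149 and 61.95 CPM and *cldnf* at 59.7 and 28.6 CPM. The *cldnh* level of ionocyte-like cells was in the range of LLSCs in the control and above it in the mutant library. *cldn17*, however, was at 20.8 and 19.1 CPM in ionocyte-like cells, below both lateral line classes. In pronephros-like cells *cldnb* was at 999.6 and 980.1 CPM, *cldnh* at 209 and 515 CPM, *cldn17* at 30.9 and 138 CPM and *cldnc* at 136 and 133 CPM. The mutant level of *cldn17* there lay between those of mutant LLSCs (88.3 CPM) and mutant LLHCs (166 CPM). *cldn10b*, a counterpart of CLDN10 of the mammalian kidney tubule, was highest in pronephros-like cells in both libraries, at 18.2 and 17.2 CPM.

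Several claudins were highest outside epithelia. *cldnk*, a known marker of myelinating glia in zebrafish, was at 1085 and 4859.7 CPM and *cldn19*, a claudin of mammalian Schwann cells and kidney, at 835 and 1450.4 CPM in glia-like cells, which numbered only 31 and 8. In progenitor-like cells (332 and 143) *cldn12* was at 112 and 41.5 CPM, its highest level in the control library only. Among mutant classes and groups of at least 15 cells it was highest in the 19 pigment-like cells at 47.6 CPM, with LLSCs at 41.6 CPM. *cldn7a* was at 783 CPM (755 to 812) and 69.7 CPM (56.3 to 85.3) in progenitor-like cells. The 2 *cldn7* genes thus differed in place, *cldn7b* being highest in LLSCs. *cldn11a*, whose mammalian counterpart is a claudin of oligodendrocyte myelin, was highest in connective tissue-like cells (469 and 273) at 94.01 and 148 CPM, as was *cldn11b* at 18.8 and 36.01 CPM. The claudin-domain gene *cldnd1b* was highest in control LLSCs at 7.76 CPM. In the mutant library it was highest in pigment-like cells at 6.7996 CPM, apart from the 8 glia-like cells, which had 1 UMI of it. That pigment-like group held only 19 cells, and LLSCs followed at 5.09 CPM on 12 UMIs. *cldn5a* was highest in the control pigment-like cells at 293 CPM, and *cldng* in control erythrocytes at 22.2 CPM.

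**Figure D4:**
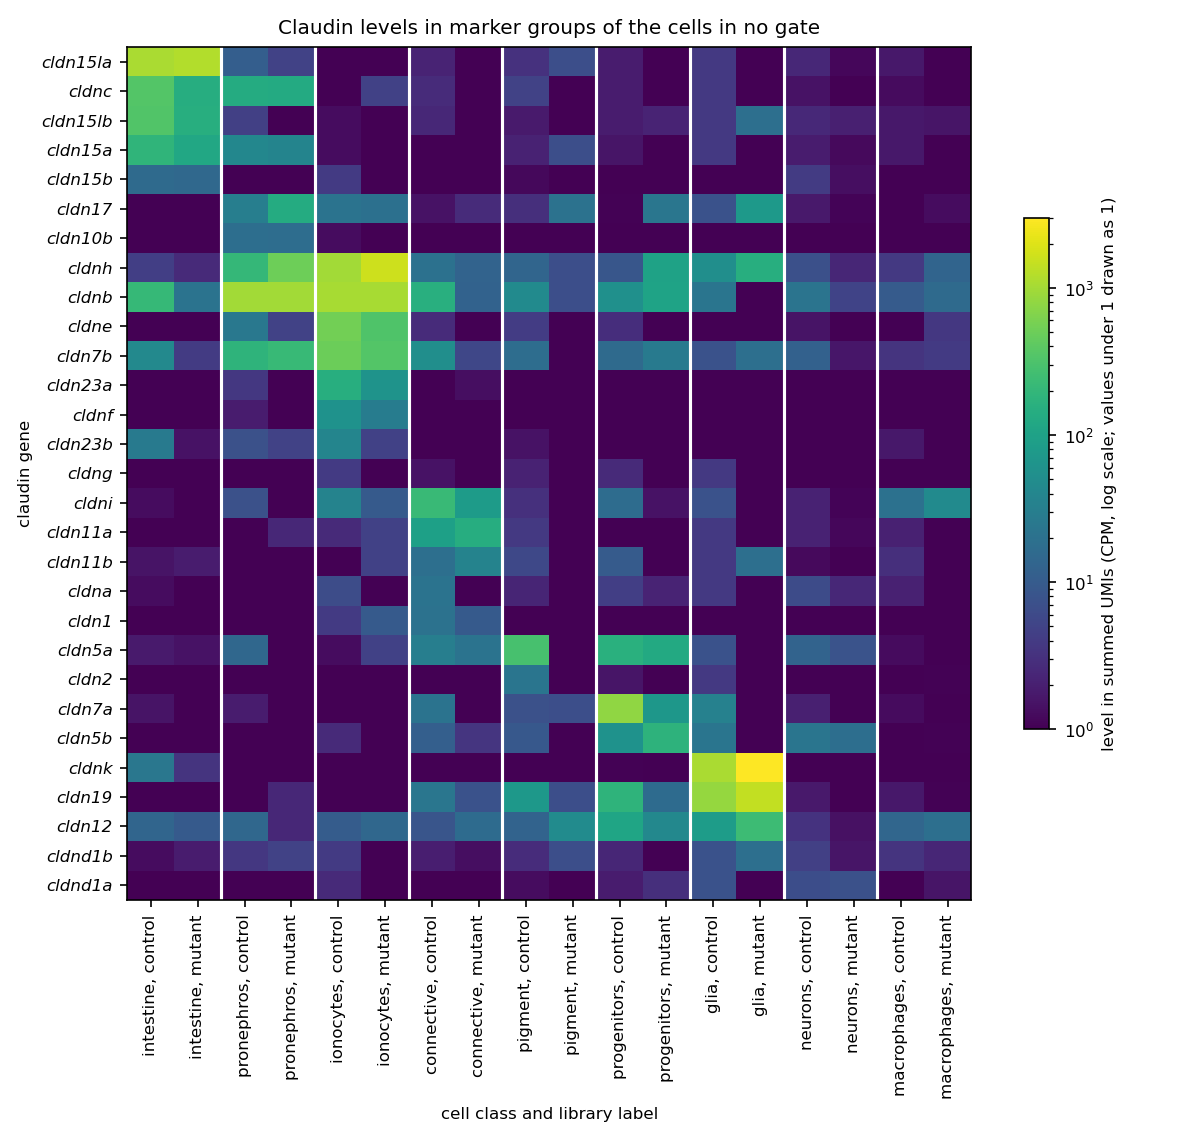
Level of the same 29 claudins (rows) in 9 marker groups of cells that met no gate (columns, control and mutant), as CPM on a logarithmic colour scale with values under 1 drawn as 1. *cldn15la* is brightest in intestine-like cells, *cldnh* and *cldnb* in ionocyte-like and pronephros-like cells, *cldnk* and *cldn19* in glia-like cells. The mutant glia-like column rests on 8 cells.

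Position on the chromosomes is a feature the choice of members did not use. In the RefSeq gene order of assembly GRCz12tu, 33 of 34 members were matched and 13 of them had another claudin within 5 genes. On chromosome 21 *cldnh*, *cldnc* and *cldnb* follow each other directly. *cldnb* and *cldnh* were both high in LLSCs, while *cldnc* had 4 and 0 UMIs there and was highest in the intestine-like cells. On chromosome 15 *cldnj*, *cldne*, *cldnf* and *cldna* follow each other, and in *otogl* cells *cldna* was at 137 and 67.5 CPM, *cldnj* at 10.3 and 12.5 CPM and *cldne* at 10.3 and 5.003 CPM, while the skin levels of *cldne* were 723 and 262 CPM. In addition, 8 genes that the name table calls claudins stand in the deposited tables under other symbols and were not members. The most abundant, *cldn29* (deposited as *zgc:112437*), lies beside *cldnb* and was at 119 and 103 CPM in IESCs against 17.8 and 11.5 CPM in LLSCs.

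Other components of tight and adherens junctions were read from a list of 39 genes, of which 36 were found. In LLSCs 10 of 36 were called (against 3.41% of all features), with *epcam* at 3608 and 3425 CPM, E-cadherin (*cdh1*) at 604 and 451 CPM, the occludin gene *oclna* at 275 and 279.7 CPM and *f11r.1*, which encodes a junctional adhesion molecule, at 487 and 442 CPM. The angulin genes *ildr1a* and *lsr*, which mark tricellular junctions, were at 91.5 and 30.99 CPM and 202 and 136 CPM, and the others called were *marveld3*, *oclnb*, *tjp2a* and *esama*. In LLHCs *ildr1a* alone was called (1 of 36, against 1.57%), at 36.1 and 29.5 CPM. ILDR1 is a human deafness gene.

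In IEHCs 2 of 36 junction genes were called, a share near the 4.99% of all features. These were *cgnb*, a cingulin gene, at 167 and 145 CPM, and *pard3ab*, a Par polarity gene, at 204 and 153 CPM. In IESCs *epcam*, *jam2b* and *marveld3* were called (3 of 36, against 1.22%), with *jam2b* at 34.8 and 93.3 CPM. Skin had *cdh1*, *epcam*, *oclna*, *oclnb* and *tjp2a* (5 of 36, against 1.82%). Endothelium had *jam2a*, *marveld1* and the gate gene *cdh5* (3 of 36, against 0.93%), and hepatocytes *f11r.2* and *crb3b* (2 of 36, against 3.09%). The gate fixed the call of *cdh5*, so only *jam2a* and *marveld1* count as findings in endothelium. *f11r.2* in hepatocytes was at 18.2 and 64.5 CPM. The ZO-1 gene *tjp1a* was at 159.9 and 81.7 CPM in IEHCs without being called.

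Between the libraries, claudins that were tested (at least 50 UMIs in the class) were mostly lower in the mutant library. A gene was called where the 95% counting interval of the mutant over control ratio lay beyond 2-fold, which says that the libraries differ, not that the genotypes do. In IEHCs 15 claudins were tested and 1 was called higher (against 1.95% of all features tested) and 7 lower (against 9.9%). Their median log2 ratio was -1.22, against -0.10 over all genes tested. *cldnh* was the gene called higher, with a log2 ratio of 1.25 (1.02 to 1.49). Its call was lost with each cell weighted equally, with barcodes of several gates kept and with globin left out of the totals. *cldnb* was lower at -1.30 (-1.44 to -1.16) and *cldna* at -2.85 (-3.33 to -2.40), from the levels given above. The others called lower were *cldn7a*, *cldni*, *cldne*, *cldn19* and *cldn5b*, with control IEHC levels between 4.25 and 22.3 CPM. No claudin was highest in IEHCs in either library, which includes the 7 called lower and also *cldnh*, called higher.

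*cldnb* was lower in the mutant library in several other cells too. It was at 68.7 and 9.77 CPM in hepatocytes, 21.6 and 5.05 CPM in neuron-like and 215 and 21.004 CPM in intestine-like cells, but it was at 10.1 and 15.8 CPM in macrophage-like cells and at 2059 and 2222 CPM in LLSCs, where its log2 ratio was 0.11 (0.05 to 0.17). In the IESC gate *cldnb* was higher in the mutant library, with a log2 ratio of 0.57 (0.49 to 0.65). In the *otogl* cells it was lower in the mutant library, as the levels above show. The part of free RNA in the IEHC difference was not tested. In IEHCs with *stm* under 100 CPM 5 claudins were called lower and *cldnh*, at 17.4 and 28.96 CPM, was no longer called.

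In LLHCs 5 claudins were tested and 0 were called higher (against 2.04%) and 1 lower (against 6.59%). The gene called was *cldni*, whose control UMIs came from 1 cell as given above. Of the 4 genes named above as higher in LLHCs than in IEHCs, *cldnh* had a log2 ratio of 0.88 (0.71 to 1.05) and *cldn17* of 0.46 (0.10 to 0.83). *cldn7b* had one of -0.73 (-1.01 to -0.45) and *cldnb* of -0.79 (-0.97 to -0.62). These intervals exclude 0 but reach within 2-fold, and 2 genes were higher and 2 lower.

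In LLSCs 8 claudins were tested, 0 were called higher (against 2.7%) and 3 lower (against 8.74%). The median log2 ratio was -0.77, against -0.13 over all genes, and that of the junction genes was -0.82. *cldne* was at 99.7 CPM (87.9 to 113) and 2.12 CPM (0.689 to 4.95) and *cldna* at 23.3 CPM (17.8 to 29.96) and 0.849 CPM (0.103 to 3.07). *cldn23b* was at 38.8 CPM (31.6 to 47.2) and 12.3 CPM (8.24 to 17.7), found in 31.8% and 10.5% of cells. *cldnh* and *cldn17* had log2 ratios of -0.24 (-0.32 to -0.16) and -0.51 (-0.77 to -0.26) here, opposite in sign to the LLHC ratios, a difference that was not tested. *cldn7b* was at -1.03 (-1.13 to -0.93) and just missed the criterion.

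In IESCs 13 claudins were tested, 1 was called higher (*cldnh*, against 2.78%) and 4 lower (against 6.6%). The 4, *cldn5a*, *cldn2*, *cldn7a* and *cldn15la*, had at most 1 UMI in the mutant cells, and *cldn5a* and *cldn2* were those of the control cells with *rdh5*. The call of *cldnh* was lost with each cell weighted equally and with barcodes of several gates kept, and in the *otogl* cells it was at 35.4 and 60.04 CPM. In hepatocytes 17 were tested with 0 higher (against 3.21%) and 8 lower (against 12.4%), namely *cldn7a*, *cldnk*, *cldn5a*, *cldna*, *cldnc*, *cldnb*, *cldn23b* and *cldn7b*. The 2 claudins called in hepatocytes differed little, with log2 ratios of 0.20 (0.16 to 0.25) for *cldn15lb* and 0.02 (-0.14 to 0.18) for *cldn2*. In endothelium 12 were tested with 0 higher (against 9.94%) and 8 lower (against 12.7%), namely *cldn7a*, *cldni*, *cldn15la*, *cldn11a*, *cldn15lb*, *cldnc*, *cldnb* and *cldn7b*. The endothelial marker list was also lower in the mutant gate, at 2654 and 1208 CPM, with *kdrl* at 177 and 81.1 and *pecam1* at 80.8 and 29.8 CPM. The gate gene *cdh5* went the other way, at 478 and 581 CPM, and the neuron list was higher as given above. The part of this makeup in the claudin ratios was not tested. *cldn5b* was at -0.67 (-0.99 to -0.36). In skin 6 were tested with 0 higher (against 3.15%) and 1 lower (*cldne*, against 9.31%), and *cldni* and *cldn1* were at 0.32 (0.19 to 0.45) and 0.63 (0.30 to 0.97). The claudins called as enriched in hepatocytes and endothelium were thus not among those called lower there. In contrast, *cldn23b* in LLSCs and *cldne* in skin were called both enriched and lower.

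**Figure D5:**
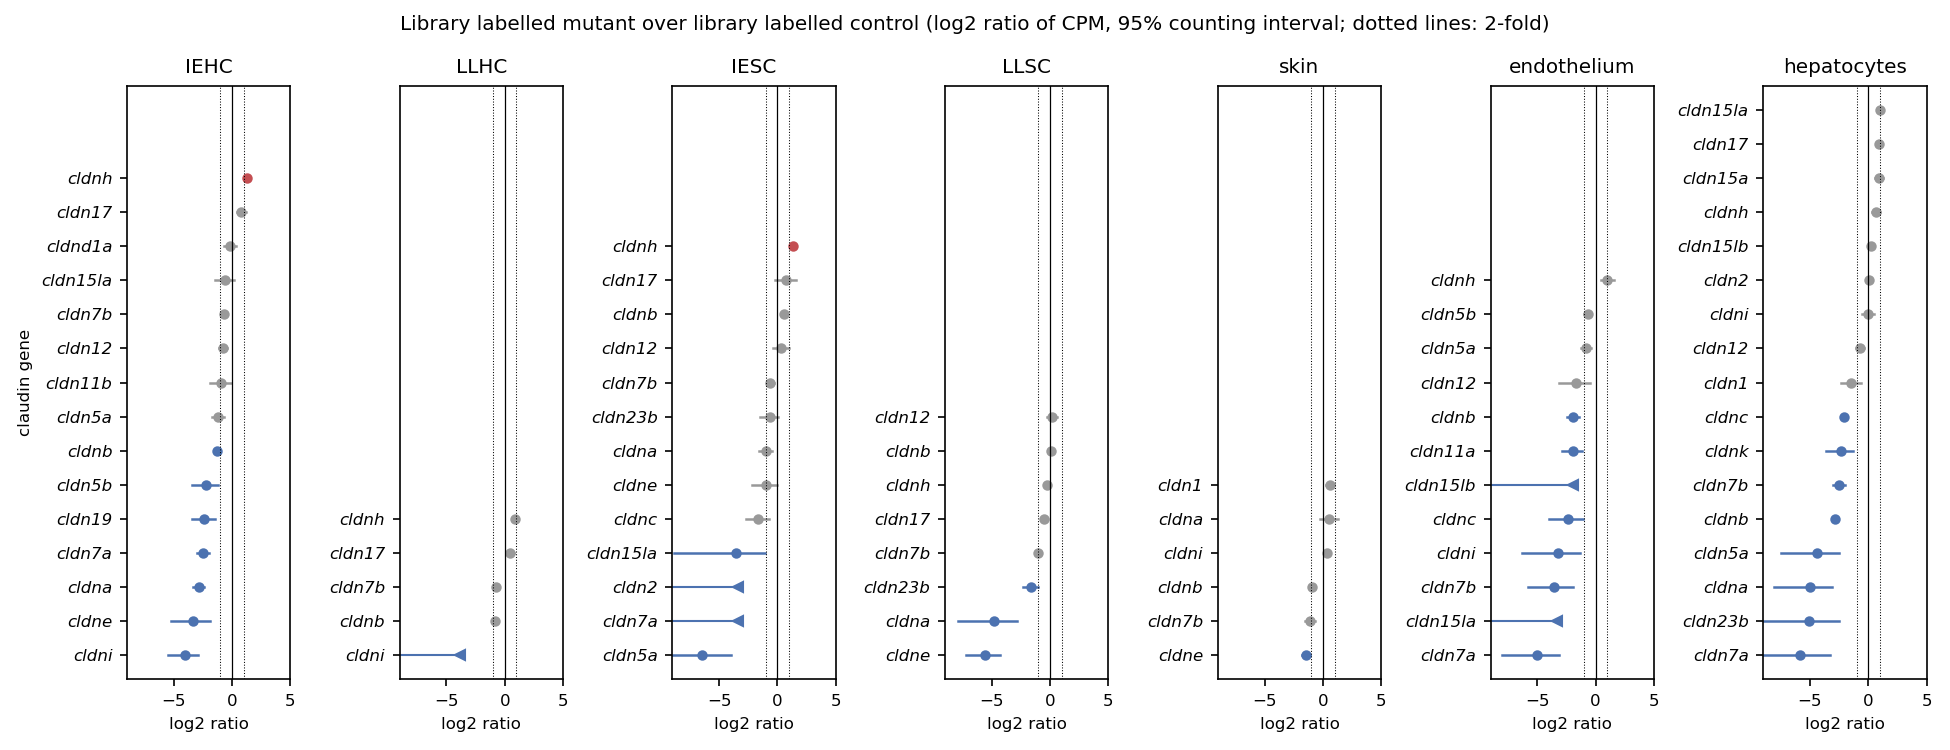
Log2 ratio of the mutant over the control library for each claudin with at least 50 UMIs in a class (points, with 95% counting intervals as lines), in 7 panels. Blue marks an interval below 2-fold lower, red an interval above 2-fold higher and grey neither; a left arrow marks the upper limit of the interval for a gene with 0 UMIs in the mutant class, and lines are cut at -9. *cldnh* is red in IEHCs and IESCs, and most coloured points are blue.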

How the data were processed

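The authors deposited, for each library, a filtered 10x matrix of UMI counts per gene and barcode, not normalized. Per the matrix headers the control library was made with Cell Ranger 7.1.0 and the mutant library with Cell Ranger 9.0.1, and the submitters' processing notes name Seurat and GRCz11. How reads shared by near-identical claudin paralogs were counted was not tested. The members and lists were chosen with earlier results of these data known.

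Barcodes holding 500 genes or more, with a mitochondrial share no higher than 20%, were gated as described, and those meeting several gates (172 and 83) were left out. Counts were summed per class and library. Because each genotype has 1 library, no p-value was computed. A gene was called enriched at 4-fold over the other kept cells in both libraries with at least 20 UMIs in the class, and different between libraries where the interval lay beyond 2-fold with at least 50 UMIs. Classes needed 50 cells in each library, lowered to 15 for skin after the data were seen. Named genes were the claudins called in a class and the 5 with the highest mean CPM there. Most other claudins were placed by the class or group where they were highest. For thinned shares, cells under 2000 UMIs were left out. Scrublet, with 8% expected doublets, marked 0 and 1 barcodes and so did not work, and removal of the 8% with the highest scores (1391 and 666) was used instead, a choice made after seeing the data. Python 3.11.15, numpy 2.4.6, pandas 2.3.3, scipy 1.17.1, scanpy 1.11.5 and matplotlib 3.10.9 were used. The interval code was tested on simulated data. Gene names and gene order came from RefSeq (assembly GRCz12tu), whose coordinates were not used because the build differs from that of the files.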

Additional observations from a re-analysis of the deposited data

How the results depend on the processing

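No paired analysis was possible because each genotype has 1 library. Of 174 counts of claudins, 124 stayed within 1.5 times the main count and 50 moved; of 240 log2 ratios of called claudins 196 moved by no more than their counting error, and 1 reversed, *cldn15lb* in endothelium, from -2.27 (an upper limit, with 0 mutant UMIs) to 0.78 with barcodes of several gates kept. Of 234 CPM values 118 moved beyond their counting interval. Removing the 8% highest doublet scores, the *otogl* requirement, the *stm* limit and skin with at least 15 cells were chosen after seeing the data. The cause was not tested, except that thinning, stricter filters and removal leave fewer UMIs.

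Against the other gated classes the enriched claudins went from 3 to 1 in LLHCs, 3 to 0 in IESCs, 5 to 2 in LLSCs, 1 to 2 in endothelium and 2 to 1 in hepatocytes. With a 2-fold criterion they were 5 in IESCs and 3 in endothelium, and with *otogl* 5 in IESCs. With the stricter barcode filter 1 was left in hepatocytes. Enrichment in LLHCs was not computed after removal of the highest doublet scores, since the 46 and 46 cells left are under the minimum of 50.

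Of the 5 claudins higher in LLHCs than in IEHCs, 3 were left with several gates kept, and 9 were called at 2-fold. The 1 higher in LLHCs than in LLSCs became 0 with equal weights, thinning or score removal, and 2 at 2-fold, where 4 were lower in place of 0. The 2 higher in LLSCs than in IESCs became 1 with the stricter filter or score removal and 0 with equal weights or thinning, and the 1 lower became 2 with several gates kept, at 2-fold or with no filter on low counts. The 1 higher in IEHCs than in IESCs became 0 with several gates kept, score removal, the stricter filter, equal weights, thinning, *otogl* or the *stm* limit, and the 7 lower became 4 with several gates kept.

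Between libraries, thinning to 2000 UMIs took the calls from 8 to 1 in IEHCs, 1 to 0 in LLHCs, 5 to 3 in IESCs, 3 to 1 in LLSCs, 1 to 0 in skin, 8 to 3 in endothelium and 8 to 2 in hepatocytes. Score removal left 5 in IEHCs, 1 in LLSCs, 5 in endothelium and 5 in hepatocytes. With no filter on low counts there were 13 in IEHCs, 2 in LLHCs, 5 in LLSCs and 3 in skin. Equal weights left 3 in IESCs and 0 in skin, the *stm* limit 5 in IEHCs, and several gates kept gave 2 in LLHCs.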

Other observations

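Claudins that the deposited tables hold under other symbols also had levels in single classes. The gene named *cldn8.2* by RefSeq, deposited as *zgc:110333* and a neighbour of *cldn17* on chromosome 15, was at 67.1 and 39.3 CPM in skin. *cldn30*, deposited as *zgc:136892*, was at 31.7 CPM in control skin and had 0 UMIs in mutant skin. *cldn26*, deposited as *si:dkey-98f17.3*, was at 5.14 and 9.18 CPM in IESCs.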
